A study of Mus musculus with 3 samples.

Results

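The secreted ribonucleases of the RNase A family are small proteins held together by disulphide bonds, and most of their genes in the mouse lie together on chromosome 14. Described here are 7 of them, picked by gene symbol out of 23519 genes: Rnase10, Rnase9, Rnase11, Rnase12, Rnase4, Ang and Rnase13, in chromosome order. All 7 were measured and all reached 1 TPM in at least 1 library. The files give a symbol for 5 of them, and Rnase9 (ENSMUSG00000052382) and Rnase11 (ENSMUSG00000059648), whose rows carry none, were found through their Ensembl identifiers.

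RNA was sequenced from the epididymis, the duct where sperm mature, of adult male ICR mice, an outbred strain. In the Sham group (3 mice) the operation left the testes in place. The Cas+CO group (5 mice) lost both testes and received corn oil, the vehicle, from 14 days after surgery, and the Cas+T group (5 mice) lost both testes and from the same day received testosterone propionate in corn oil under the skin at a daily 5 mg/kg for 10 days. Each group is represented by 1 library, and whether it pools the mice of the group is not given in the sources used here. No injection is recorded for Sham, so castration and oil cannot be told apart in comparisons with it. With 1 library per group no replicate error exists and no test across animals was possible; every ratio below compares 2 libraries.

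Members of this family with an intact active site cut RNA, and a cytosolic inhibitor encoded by Rnh1 binds them tightly. Angiogenin, the product of Ang, is a weak ribonuclease that promotes blood vessel growth and cleaves transfer RNA, and the Rnase4 product is a ribonuclease secreted by many tissues. The products of Rnase9 to Rnase13 lack residues needed for catalysis and are known from the male tract. In the mouse, Rnase10 is known from the initial segment, the stretch of duct nearest the testis, and sperm of males without it adhere poorly to the egg coat.

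The first 6 genes form a compact block on GRCm38 chromosome 14, with no other gene of the files between them. Rnase10 (ENSMUSG00000021872) lies on the plus strand at 51007751 to 51010758. Rnase9 (51038459 to 51041869), Rnase11 (51049451 to 51050163) and Rnase12 (ENSMUSG00000068407, 51056698 to 51057661) follow on the minus strand, the last pair 6.53 kb apart. Rnase4 (ENSMUSG00000021876, 51091077 to 51106151) and Ang (ENSMUSG00000072115, 51091150 to 51102009) overlap on the plus strand and share 219 exonic bases. Rnase13 (ENSMUSG00000068392, minus strand, 51921362 to 51922773) stands 815 kb further on. All are annotated as protein coding, with coding sequence of 435 to 735 bases.

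Promoters of 4 starts are shown, from RefSeq on GRCm38.p6 (the C57BL/6J reference, not ICR). They were picked with the levels of their genes in view, without a measure of how far the patterns differ. The windows of Rnase11 and Rnase13 and of the second starts of Rnase10 and Rnase4 are not shown. Rnase10 is the gene that stayed low with testosterone, and Rnase9 the most abundant in Sham of those that came back. Rnase12 is one of the closely matched pair, and Rnase4 and Ang, which were higher in Cas+CO than in Sham, share a start. Each runs 5′ to 3′ along the gene's strand from 250 bases before the RefSeq start to 50 bases into the transcript. Capitals mark AGAACA, one arm of an androgen response element, and AGGAAG, a core bound by ETS factors, or their reverse complements. The windows are chr14:51007501-51007800 (plus strand), chr14:51041818-51042117 (minus), chr14:51057193-51057492 (minus) and chr14:51090827-51091126 (plus). The Rnase12 window lies wholly inside the gene span given above (51056698 to 51057661), so its RefSeq start is not the outermost annotated start.
Rnase10: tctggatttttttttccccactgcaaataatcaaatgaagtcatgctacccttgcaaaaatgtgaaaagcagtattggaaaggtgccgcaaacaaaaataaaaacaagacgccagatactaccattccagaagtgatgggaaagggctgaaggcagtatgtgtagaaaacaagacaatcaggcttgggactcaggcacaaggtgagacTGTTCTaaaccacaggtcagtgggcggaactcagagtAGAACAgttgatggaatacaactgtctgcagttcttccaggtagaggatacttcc
Rnase9: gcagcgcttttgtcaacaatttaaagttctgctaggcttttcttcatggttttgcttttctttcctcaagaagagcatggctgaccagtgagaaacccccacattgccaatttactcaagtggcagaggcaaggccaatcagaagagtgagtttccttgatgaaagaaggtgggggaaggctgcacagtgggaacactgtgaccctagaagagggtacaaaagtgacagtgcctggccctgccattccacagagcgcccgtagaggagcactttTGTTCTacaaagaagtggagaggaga
Rnase12: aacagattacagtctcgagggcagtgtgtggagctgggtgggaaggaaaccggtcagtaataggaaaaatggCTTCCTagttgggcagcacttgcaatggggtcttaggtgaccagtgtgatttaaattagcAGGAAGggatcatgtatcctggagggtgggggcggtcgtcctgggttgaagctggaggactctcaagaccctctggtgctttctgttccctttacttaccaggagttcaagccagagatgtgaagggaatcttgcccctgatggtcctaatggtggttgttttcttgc
Rnase4 and Ang: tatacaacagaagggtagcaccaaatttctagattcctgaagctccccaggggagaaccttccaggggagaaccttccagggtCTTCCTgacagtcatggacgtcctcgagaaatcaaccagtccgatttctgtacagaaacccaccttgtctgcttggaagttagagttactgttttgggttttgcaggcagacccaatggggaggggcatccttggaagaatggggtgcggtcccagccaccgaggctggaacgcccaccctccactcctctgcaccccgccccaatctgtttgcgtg

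The Rnase10 window held 2 copies of AGAACA, the first beginning 42 bases before the start on the opposite strand and the other 5 bases before it. In the Rnase9 window 1 copy lay within the transcript, and the Rnase12 and shared Rnase4 and Ang windows held none. AGGAAG was found at 2 places before the RefSeq start of Rnase12, inside the annotated gene span, and at 1 before Rnase4 and Ang. Among the windows not shown, that of the second Rnase4 start held 1 AGAACA, 116 bases before the start, and 3 AGGAAG. The Rnase11 window held 1 AGGAAG and no AGAACA, and the Rnase13 window held neither. Over the 8 distinct windows listed for the 7 genes, which include second starts for Rnase10 and Rnase4, 4 held AGAACA and 5 held AGGAAG, against 19.0% and 35.4% of 32817 promoter windows of the same length. The AGAACA copies in the 2 Rnase10 windows are the same bases, since these windows overlap. The full androgen response element (AGAACA facing its reverse complement across 3 bases) and the TATA box TATAAA were in none of the 8 windows, and in 0.00914% and 13.6% of all windows. Both strands were searched, and a match describes letters only.

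Levels are TPM, a unit of transcript abundance that corrects for gene length and fixes each library's total, so that genes can be compared with each other. Depth is unknown, so no counting interval can be given, and values under about 1 TPM may rest on very few reads. Over all genes the median level was 2.27 TPM in Sham, against 5.04 in Cas+CO and 2.83 in Cas+T. Because totals are fixed, a loss of abundant transcripts can lift all others. Bringing 12679 expressed genes to one median shifts Cas+CO by −0.80 and Cas+T by −0.35 on the log2 scale. If the 50 highest genes of each library are dropped before totals are matched, these shifts are −0.33 and −0.19. How much of the median shift comes from lost abundant transcripts was not tested. Principal cell markers of the duct were abundant in Sham (8 of 8 listed, 97841 TPM together), so the defining cells of the labelled tissue were represented, while sperm markers summed to 62.0 TPM in Sham, against 7.56 in Cas+CO and 1.07 in Cas+T. Prm1, Prm2, Tnp1 and Tnp2 were listed at 0 in both castrated libraries. The whole Cas+CO sum was Spata18, which was higher there than in Sham (7.56 against 1.37 TPM), and all other sperm markers were at 0 in Cas+CO.

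Together the 7 genes held 5945 TPM in Sham, against 299 TPM in Cas+CO and 3839 TPM in Cas+T, so Cas+CO had 5.02% and Cas+T 64.6% of the Sham sum. The make-up of that sum differed as well as its size. Rnase9 led in Sham with 45.2%, before Rnase10 (26.3%) and Rnase12 (22.1%), and Rnase4 with Ang made up 0.613%. In Cas+CO Rnase4 (45.5%) and Rnase12 (45.5%) stood level at the top, and Rnase4 with Ang reached 48.7%. The Cas+T sum was led by Rnase12 (43.2%) and Rnase9 (40.3%), with Rnase13 at 12.8% and Rnase10 at 0.115%.

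**Figure D1:**
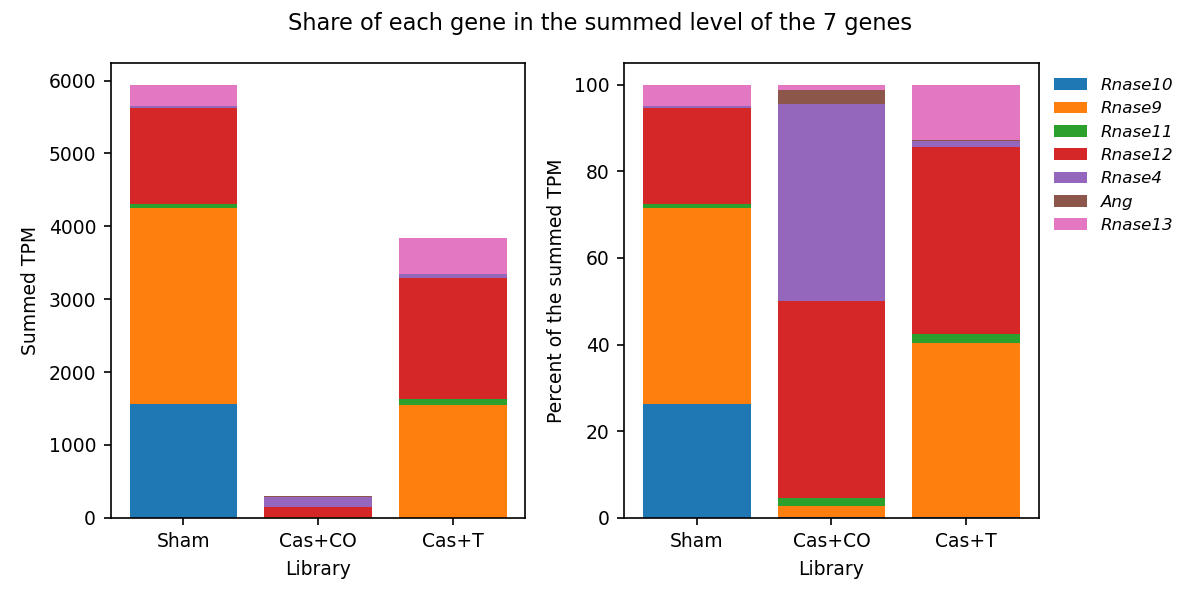
Summed TPM of the 7 genes in each library (left) and each gene's percent of that sum (right), 1 library per bar. The Cas+CO bar reaches 299 TPM against 5945 in Sham, and the Rnase10 segment, 26.3% in Sham, is 0.115% in Cas+T.

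Rnase9, a secreted protein of the epididymal lining, was the most abundant of the genes in Sham. Its level was 2686 TPM in Sham, 7.66 TPM after castration with corn oil (Cas+CO) and 1547 TPM after castration with testosterone (Cas+T). It ranked 41st among all genes in Sham and 69th in Cas+T, and Cas+CO was 351-fold below Sham on the TPM scale. The Cas+T library stood at 57.6% of the Sham level, a difference of −0.80 on the log2(TPM + 1) scale, which lies inside the 2-fold limit used here but passes it, at −1.14, once the libraries are brought to one median.

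Rnase10, the initial segment gene, had the widest swing. Sham had 1562 TPM, Cas+CO had 0.48 and Cas+T had 4.41. Sham alone was high, and both castrated libraries stood at under 1% of it: 0.0307% and 0.282%. Cas+T was 9.19-fold above Cas+CO, but both values are low and the ratio rests on the 0.48 TPM of Cas+CO. Cas+T remained 354-fold below Sham, and the gene went from rank 62 in Sham to rank 10649 in Cas+T.

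Rnase11 and Rnase12, neighbours on the same strand whose proteins are little studied, had closely matched profiles at very different levels. Rnase12 stood at 1312 TPM in Sham, at 136 in Cas+CO and at 1659 in Cas+T. For Rnase11 the values were 59.3, 5.43 and 78.1 TPM. Cas+CO was 9.66-fold below Sham for Rnase12 and 10.9-fold for Rnase11, and Cas+T was above Sham by 1.26-fold and 1.32-fold, within the limit (log2 differences that came to −0.0098 and 0.05 after median scaling). The TPM of Rnase12 was 22.1 times that of Rnase11 in Sham, with 25.01 times for Cas+CO and 21.2 times for Cas+T. Rnase12 was the one gene of the 5 lower ones that stayed above 100 TPM in Cas+CO. In Cas+T it was the most abundant of all 7, at rank 60.

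Rnase13, the distant gene, followed the same order of libraries. Sham held 289 TPM, Cas+CO 3.75 and Cas+T 491. Cas+CO was 77.0-fold below Sham, and Cas+T 131-fold above Cas+CO. Cas+T exceeded Sham by 1.70-fold, within the limit.

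Rnase4 and Ang went the opposite way. Rnase4 stood at 35.4 TPM in Sham, at 136 in Cas+CO and at 55.3 in Cas+T. For Ang, which codes for angiogenin, the levels were 1.07, 9.49 and 3.88 TPM. Both were highest in Cas+CO and lowest in Sham: Cas+CO stood 3.84-fold above Sham for Rnase4 and 8.87-fold for Ang, and Cas+T 2.46-fold and 2.45-fold below Cas+CO. Ang in Cas+T was still 3.63-fold above Sham on the TPM scale, where its Sham level of 1.07 TPM is low. Rnase4 exceeded Ang 33.1-fold in Sham and 14.3-fold in each castrated library.

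**Figure D2:**
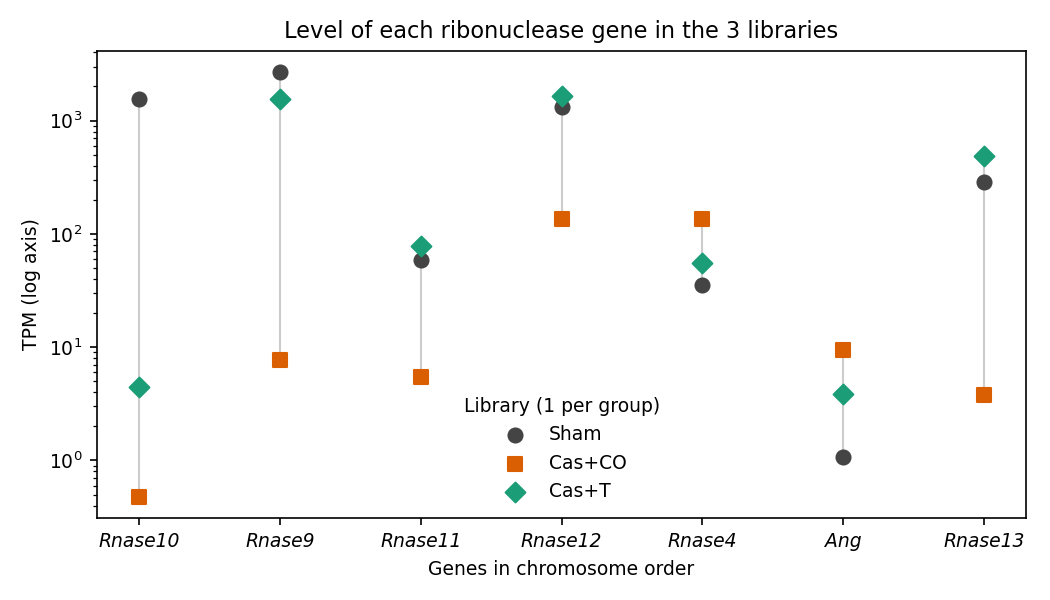
TPM on a log axis for each gene in chromosome order, 1 point per library. Cas+CO is the lowest point for Rnase10, Rnase9, Rnase11, Rnase12 and Rnase13 and the highest for Rnase4 and Ang, and the Cas+T point of Rnase10 alone lies far below Sham, at 4.41 against 1562 TPM.

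How reads from the shared exons of Rnase4 and Ang were divided is not given in the sources used here. Of all 50-base windows in the annotated transcripts, 7.75% of those of Rnase4 also occurred in Ang, and 14.5% of those of Ang occurred in Rnase4 or in Ang2, a close copy of Ang, so the low Ang values in particular are uncertain. For Rnase10, Rnase9, Rnase11, Rnase12 and Rnase13 no such window occurred in another gene's transcripts, on either strand.

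Castration together with corn oil was compared with the sham operation as Cas+CO against Sham. On the log2(TPM + 1) scale, 5 of the 7 genes lay at least 2-fold below Sham in Cas+CO and 2 above it. Among all 16182 genes compared, 6.48% were lower (1049) and 37.6% higher (6077), and after median scaling 1898 were lower and 2104 higher; the 7 genes kept 5 lower and 2 higher under that scaling. The differences were −10.04 for Rnase10, −8.28 for Rnase9, −5.93 for Rnase13, −3.26 for Rnase12 and −3.23 for Rnase11, with 1.91 for Rnase4 and 2.34 for Ang. Their median was −3.26, against 0.76 over all genes compared. After median scaling Rnase4 came to 1.12 and Ang to 1.64, and the 5 lower genes ran from −10.26 to −3.87.

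Markers of several cell types moved with these groups. The 8 principal cell markers, secreted or surface proteins such as Crisp1 and Gpx5, were all lower in Cas+CO than in Sham. Their sum went from 97841 TPM in Sham to 8440 there and stood at 68729 TPM with testosterone. Crisp1 alone gave 44116 TPM of the Sham sum and 32799 TPM of that with testosterone. Against Sham, Cas+T was lower for 2 of the 8, and for 4 after median scaling. Defb48 fell from 4135 TPM in Sham to a listed 0 in Cas+CO, with only 2.37 TPM after testosterone. Cst11 was lower in Cas+T (296 TPM) than in Cas+CO (1214 TPM), while the other 7 were higher. In bulk tissue fewer cells of a type and less RNA per cell cannot be told apart. The order of Rnase4 and Ang over the libraries was also that of the sums of 6 other marker lists given below. The sum of the eosinophil markers had this order too, at 0.03, 0.61 and 0.18 TPM in Sham, Cas+CO and Cas+T. Smooth muscle markers ran otherwise, at 875, 493 and 259 TPM in Sham, Cas+CO and Cas+T. Of these 5 markers, 1 was lower and 0 were higher in Cas+CO than in Sham. Among epithelial cells, clear cell markers (3 of 3 compared higher in Cas+CO than in Sham) summed to 55.7, 250.2 and 108 TPM in Sham, Cas+CO and Cas+T, and basal cell markers (1 of 4 higher) to 75.9, 150 and 105 TPM, with the same counts after median scaling. Adipocyte markers (8 of 8 higher in Cas+CO than in Sham) summed to 42.4, 2263 and 120 TPM in Sham, Cas+CO and Cas+T, and fibroblast markers (5 of 6 higher) to 103, 1279 and 108 TPM. Macrophage markers (7 of 7 higher) summed to 74.3, 642 and 122 TPM, and endothelial markers (5 of 5 higher) to 3.77, 32.8 and 3.86 TPM. None of the markers in these 6 lists was at 0 in any library, and after median scaling 8 adipocyte, 5 fibroblast, 3 macrophage and 3 endothelial markers were higher. Their part in the values of Rnase4 and Ang was not tested. Liver markers, listed because liver makes much angiogenin, summed to at most 1.49 TPM in any library.

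**Figure D3:**
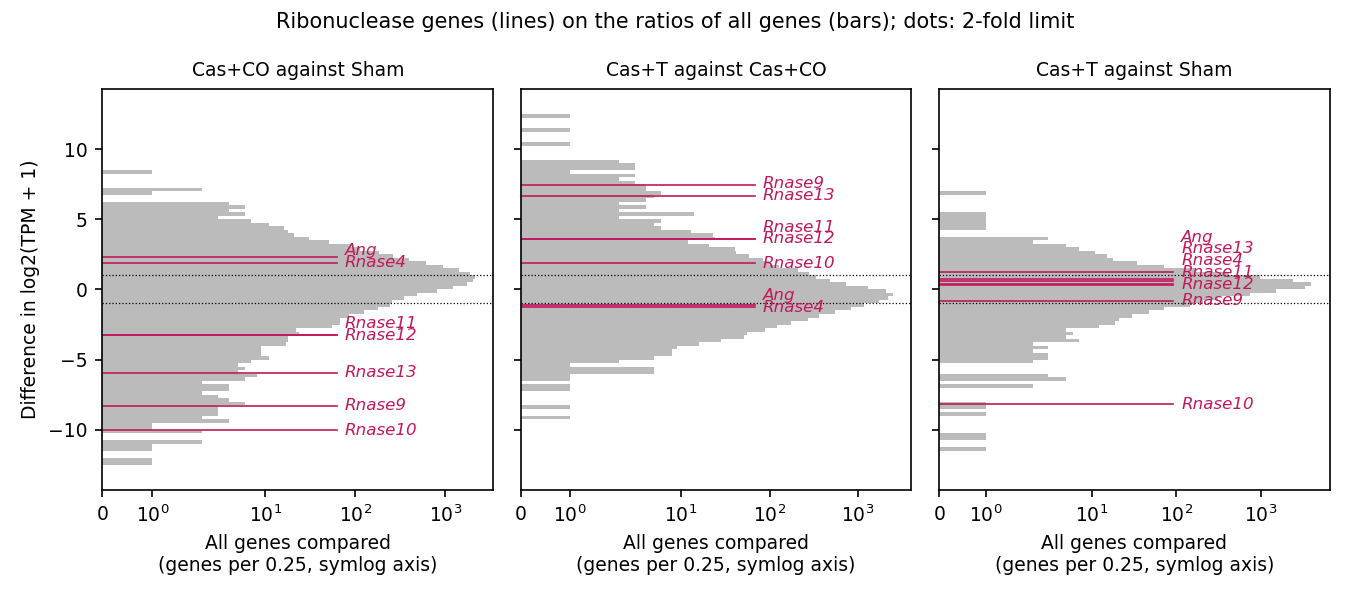
Differences in log2(TPM + 1) of the 7 genes (red lines; labels are moved up where lines lie close) on those of all genes compared (grey bars, genes per step of 0.25 on a symmetric log axis) for the 3 pairs of libraries, with dotted lines at the 2-fold limit. Rnase10 lies at −10.04 and −8.17 in both comparisons with Sham, while Rnase9 moves from −8.28 to −0.80.

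Testosterone against corn oil in castrated mice asked what the hormone altered. In Cas+T 5 of the 7 genes lay at least 2-fold above Cas+CO, where 6.9% of 16165 genes were higher, and 2 were lower, where 23.4% were lower. The same Cas+CO library enters this and the preceding comparison. Differences were 7.48 for Rnase9, 6.69 for Rnase13, 3.62 for Rnase11, 3.60 for Rnase12 and 1.87 for Rnase10, with −1.28 for Rnase4 and −1.10 for Ang; their median was 3.60, against −0.46 over all genes. After median scaling Rnase4 (−0.83) and Ang (−0.68) lay within the limit.

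The return, meaning how much of the log2 gap from Sham to Cas+CO was closed in Cas+T, was 113% for Rnase13, 112% for Rnase11, 110% for Rnase12 and 90.4% for Rnase9. It was 67.1% for Rnase4, 47.2% for Ang and 18.6% for Rnase10. As a yardstick, 215 genes reached 100 TPM in Sham and lay at least 2-fold below it in Cas+CO; 89.3% of them came back by at least 50%, and the median return was 97.5%. Rnase10, Rnase9, Rnase12 and Rnase13 belong to these 215. Rnase10 had the 8th largest fall among them, and 202 genes had a higher return. The low return held with a pseudocount of 0.1 (26.0%) and after median scaling (17.6%).

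**Figure D4:**
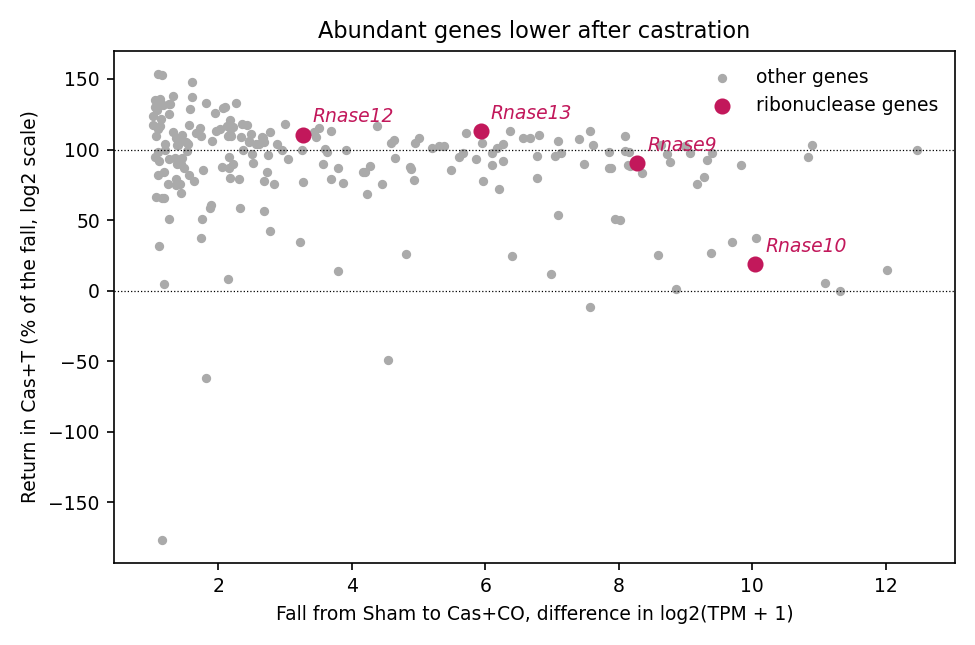
Return in Cas+T (percent of the fall, log2 scale) against the fall from Sham to Cas+CO for the 215 genes that reached 100 TPM in Sham and lay at least 2-fold below it in Cas+CO, 1 point per gene. Rnase12, Rnase13 and Rnase9 lie near 100% and Rnase10 at 18.6%.

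Cas+T against Sham left 5 of the 7 genes within 2-fold. Rnase10 was lower (−8.17) and Ang higher (1.24), where 2.75% of 14631 genes were lower and 5.19% higher. The other differences were −0.80 for Rnase9, 0.34 for Rnase12, 0.39 for Rnase11, 0.63 for Rnase4 and 0.76 for Rnase13, and all genes compared had a median of 0.30. Under median scaling Ang came to 0.97, within the limit. Markers of the initial segment, the region Rnase10 is known from, stood below Sham in Cas+T for 8 of 10 and summed to 16640 TPM in Sham, against 76.1 in Cas+CO and 5473 in Cas+T. Most of the Cas+T sum was Defb18, a beta-defensin, at 5333 TPM, whereas Lcn9, a lipocalin, was listed at 0 in both castrated libraries.

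The genes with the most similar pattern were sought over the 3 libraries, as the smallest distance between log2(TPM + 1) values centred on each gene's mean, among 9428 named genes at 10 TPM or more. Over only 3 libraries many genes lie close, and the distance is a description. Rnase10 was nearest to Defb47, a beta-defensin (1894, 1.83 and 14.9 TPM in Sham, Cas+CO and Cas+T), then to Teddm2 and Teddm1a, membrane proteins of the epididymis. Its nearest distance, 0.90, was the largest of the 6 genes that reached 10 TPM. Rnase9 was nearest to Adam7, a membrane protein passed on to sperm (4633, 13.6 and 2825 TPM; distance 0.08), and then to Lcn6, a lipocalin, and Npy, neuropeptide Y. Rnase11 and Rnase12 were each other's nearest gene (distance 0.04), and Atp13a4, an ion-pump ATPase, and P2rx2, an ATP-gated channel, were next for both. Rnase13 was nearest to Rhcg, an ammonia transporter (105, 1.02 and 169 TPM; distance 0.22), followed by Gpr82, an orphan receptor, and Defb38. For Rnase4 they were Ets2, a transcription factor (13.4, 53.7 and 21.5 TPM; distance 0.01), Adamts15, a matrix protease, and Mbd4, a DNA repair glycosylase.

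Along the chromosome the surrounding genes differed less between Cas+CO and Sham than the 5 lower ribonuclease genes. The 12 listed genes between Ang and Rnase13 and the 5 on each outer side made 22 neighbours, of which 14 could be compared between Cas+CO and Sham. Lower by at least 2-fold were 3 of these 14, and 2 were higher, where 6.48% of all genes compared were lower and 37.6% higher. The median was 0.21, against 0.76 over all genes, and the range ran from −2.56 to 1.99. On the near side of Rnase10 lies Gm8518, a pseudogene (2.31, 2.44 and 5.17 TPM in Sham, Cas+CO and Cas+T), and beyond it Pnp, which codes for purine nucleoside phosphorylase (28.7, 36.2 and 18.2 TPM). On the other side Eddm3b, an epididymal secretory protein gene directly after Ang, stood at 436 TPM in Sham, at 192 in Cas+CO and at 563 in Cas+T. The order of libraries was that of Rnase11 and Rnase12, with a smaller difference of −1.18 between Cas+CO and Sham. Tppp2, a tubulin-binding protein gene beside Rnase13, had 4.90 TPM in Sham and 3.48 in Cas+T, and Cas+CO lists it at 0, so its difference of −2.56, the lowest among the neighbours, depends on the pseudocount. Gm16617, an antisense gene, was at 1, 0 and 1.20 TPM and made up the third lower neighbour. Its difference of −1 lies exactly at the limit and also depends on the pseudocount. Higher in Cas+CO were Rnase1 and Zfp219, a zinc finger gene (15.6, 44.3 and 23.7 TPM), of which Rnase1 alone stayed past the limit after median scaling. Apex1, Pip4p1, Gm49342, Mettl17, Ndrg2 and Arhgef40, also at 10 TPM or more, lay within 2-fold between Cas+CO and Sham, and Ndrg2 was at 53.5, 60.7 and 117 TPM.

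**Figure D5:**
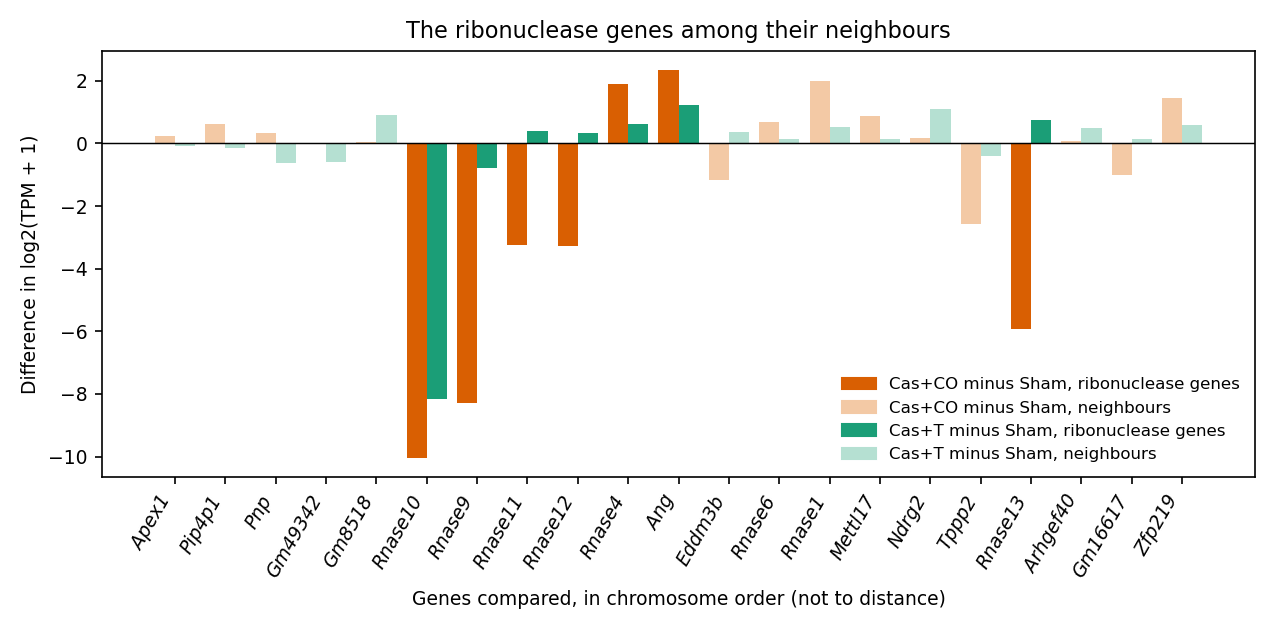
Differences in log2(TPM + 1) of Cas+CO (orange) and Cas+T (green) from Sham for the 7 ribonuclease genes (dark) and the 14 neighbours compared (pale), in chromosome order and not to distance. The neighbours range from −2.56 to 1.99 in Cas+CO, while Rnase10 and Rnase9 reach −10.04 and −8.28.

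Of 15 further RNase A family genes, 4 were listed in the files. Rnase1, the pancreatic-type enzyme also made by blood vessel lining, stood at 5.72 TPM in Sham, at 25.7 in Cas+CO and at 8.71 in Cas+T, the order seen for Rnase4 and Ang. Rnase6, an enzyme of myeloid cells with antimicrobial activity, was at 8.85, 14.7 and 9.89 TPM and stayed within 2-fold, with a difference between Cas+CO and Sham of 0.68 that came to −0.055 after median scaling. Rnase2a, of the eosinophil type, was at 0.58, 0.57 and 1.63 TPM, and Ear2 had 0.18 TPM in Sham, while both castrated libraries list it at 0. Of 4 eosinophil markers 3 were listed, with a sum of at most 0.61 TPM. Rnh1, the inhibitor, was at 109, 96.1 and 101 TPM, a log2 difference of −0.18 for Cas+CO against Sham as deposited and of −0.97, just inside the limit, after median scaling. Plxnb2, a receptor of angiogenin, was at 38.5, 102 and 47.4 TPM. It was thus over 2-fold higher in Cas+CO than in Sham and lower again in Cas+T as deposited, but within 2-fold in both comparisons after median scaling.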

How the data were processed

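The authors deposited 1 log2 value per gene for each of 3 libraries. No header or label names the unit, aligner, build or annotation. Raised from the log2 scale and reduced by 1, the deposited values summed to 1000000 in every library, in steps of 0.01, and short genes had higher lowest values than long ones, so they were read as log2(TPM + 1). TPM keeps no depth. Of 23538 identifiers, 23518 matched GENCODE M21 (GRCm38), and rows sharing a symbol were summed. Ratios are differences of log2(TPM + 1) for genes at 1 TPM or more in either library, called at 2-fold. Fold changes given as such are plain TPM ratios. With 1 library per group no test was made. The code was tested on simulated data. The genes and lists were chosen with earlier results of these data known. Genes named by rule were the 7 members, other family members and partners, neighbours at 10 TPM or more, and the 3 most similar genes per member at 10 TPM or more. Gm8518, Gm16617, Tppp2 and marker genes were picked with their values in view. Promoters came from RefSeq. Protein sequences were not used here. Alternatives covered the pseudocount, minimum, scaling, limit and summing of rows. Python 3.11.15, NumPy 2.4.6, pandas 2.3.3 and matplotlib 3.10.9 were used.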

Additional observations from a re-analysis of the deposited data

How the results depend on the processing

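Of 122 recomputed member ratios 121 kept their direction, the exception being Rnase12 in Cas+T against Sham, within the limit at 0.34 and at −0.0098 after median scaling, and 117 kept their side of the 2-fold limit; the other 5 fall under the scalings. Median scaling gave 1898 lower and 2104 higher genes in Cas+CO against Sham, 1928 lower in Cas+T against Cas+CO and 308 higher in Cas+T against Sham. Of the 7 genes it left 0 lower in Cas+T against Cas+CO (Rnase4 −0.83, Ang −0.68), and 2 lower (with Rnase9 at −1.14) and 0 higher in Cas+T against Sham (Ang 0.97). Scaling without the 50 most abundant genes gave 4015 higher genes in Cas+CO against Sham and 451 higher in Cas+T against Sham. It left 1 member lower in Cas+T against Cas+CO, Rnase4 at −1.14, with Ang at −0.96 within the limit. With a minimum of 10 TPM, which leaves Ang out of every comparison and Rnase10 out of Cas+T against Cas+CO, the members had 1 higher in Cas+CO against Sham, 1 lower and 4 higher in Cas+T against Cas+CO and 0 higher in Cas+T against Sham, and all genes 549 lower and 3552 higher, 1821 lower and 628 higher, and 140 lower and 326 higher. A 4-fold limit gave, for the members, 1 higher in Cas+CO against Sham, 0 lower in Cas+T against Cas+CO and 0 higher in Cas+T against Sham. For other family genes it gave 0 higher and 0 lower in the first 2 comparisons. All genes then numbered 413 lower and 1230 higher, 860 and 403, and 106 and 67. A pseudocount of 0.1 gave 631 lower and 1415 higher genes in Cas+T against Sham, and 1 other family gene higher in each comparison of Cas+T. Shifts under a scaling come from its own construction; the cause of the others was not tested beyond the fewer genes that a minimum or wider limit leaves. No paired analysis was possible because each group has 1 library. Unknown depth limits the values under 1 TPM, above all Rnase10 in Cas+CO.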
